A study of Mus musculus with 12 samples.

Results

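The comparison describes the response of D2A1 cells to growth on and under Matrigel. D2A1 is a mouse mammary carcinoma cell line that derives from a tumor of the D2 hyperplastic alveolar nodule line and grows out as metastases in mice. The comparison holds 6 of the 12 libraries of the series, 3 of D2A1 in 2D culture and 3 of D2A1 in 3D culture, and the cell line and culture labels chose them. The other 6 libraries come from D2.OR, a sister line that hardly expands in the same 3D culture. They entered the same fit, where they share in the filter, the batch terms and the estimate of the spread behind every D2A1 test, and their own values are given below to show where the D2A1 response differed. In 3D, cells were seeded singly at low density on a layer of growth-factor-reduced Matrigel, under medium with a little more Matrigel in it, and RNA was taken after a week. In 2D, cells grew on bare plastic. The labels give neither group a transgene, a deletion or a drug. They mark the replicates with a B and the number 1, 2 or 3, read here as batches, and their run names put each number in a sequencing lane of its own (lanes 8, 6 and 7). The study states in general that its findings rest on biological repeats and equates batch with replicate, without describing how the cultures for RNA were kept apart, and the p-values measure the spread between these libraries.

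Some features of the model bear on every value. Each library is a pool of wells, so that dividing, resting and dying cells were averaged. The 3D cells were freed from the gel in ice-cold recovery solution before lysis, a step that plastic does not need. The study's dormancy assay puts both cultures in a low-serum medium with hydrocortisone, cholera toxin and insulin, whereas its RNA methods refer to the general culture section, which uses high-glucose medium with fetal bovine serum. The matrix, the recovery step and any difference in medium therefore cannot be told apart. The labels call D2A1 a breast cancer cell line, but most defining epithelial genes were at or near 0. Of 17 epithelial markers, 12 were below 1 CPM (counts scaled to library size) in all 6 libraries. The filter on low counts, which also draws on the D2.OR libraries, was passed by 12 of the 17. In every one of the 6 libraries Epcam stood at or below 0.184 CPM and Cldn7 at 0 counts. Krt18, a keratin of simple epithelia, was present, with 211, 143 and 204 CPM in 2D and 159, 76.1 and 72.2 CPM in 3D. Vim, an intermediate filament gene of mesenchymal cells, had 1997, 581 and 619 CPM in 2D and 2529.7, 951 and 932 CPM in 3D.

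Matrigel is the solubilized basement membrane of the mouse Engelbreth-Holm-Swarm (EHS) sarcoma and consists mainly of laminin, type IV collagen, nidogen and perlecan. Cells bind it through integrins and other receptors. On a soft gel, cells are rounder and carry less actomyosin tension than on plastic, and the nuclear entry of YAP and of the SRF cofactors depends on such tension. Basement membrane contact can hold single tumor cells in a nonproliferating state, and cells that grow out in it usually do so with an altered program of adhesion, matrix and cytokine genes. NF-kB factors, held in the cytoplasm by IkB proteins such as Nfkbia, switch on many of these cytokine genes. Interferon-stimulated genes are switched on by a transcription factor complex that holds STAT2 and IRF9, and lysosomal genes share control by TFEB and its relatives.

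Library totals were 47589611 to 58932784 expected counts in 2D (median 54411264) and 62054222 to 66087229 in 3D (median 65229122). Of 52550 genes, 16823 passed the filter on low counts. The genes of mitochondrial DNA took 1.67% to 2.20% of the counts. CPM values below are normalized by the TMM method, log2 fold changes are fitted values of 3D minus 2D with their standard error, and adjusted p-values come from edgeR's quasi-likelihood test with batch as a block.

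Both libraries of batch 1 stood apart from the others of their culture. On the first principal component of the 6 libraries, which held 50.2% of the variance, the 2D libraries of batches 1 to 3 scored 57.6, 22.6 and 30.6, while the 3D libraries scored 28.8, -65.5 and -74.0. The 3D library of batch 1 thus lay among the 2D libraries on this axis. On the second component (29.1% of the variance) the 2D library of batch 1 scored 42.3, beside 43.5 for its 3D partner and -55.1 and -45.2 for the other 2D libraries. Of all single libraries, leaving out the 2D one of batch 1 gave the most calls, 5237 against 2208 without its 3D partner. Over all genes the log2 response had an interquartile range of 0.34, 0.81 and 0.96 in batches 1, 2 and 3. Across genes the response of batch 2 correlated with that of batch 3 (r = 0.72 over 16823 genes), whereas batch 1 correlated with batch 2 at 0.29 and with batch 3 at 0.26. Genes are not independent replicates, and these correlations are descriptions. Counts of called genes in a list are therefore given with and without batch 1. What set batch 1 apart was not tested.

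**Figure D1:**
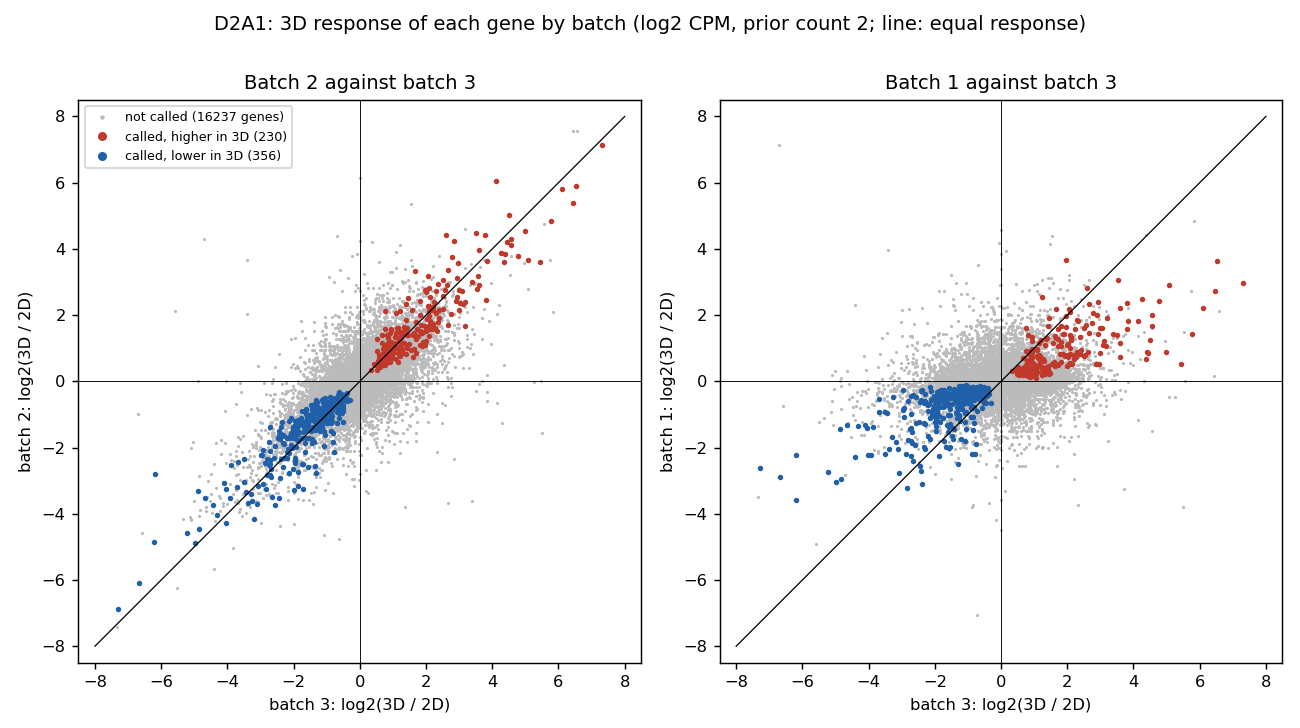
Each point is 1 of 16823 genes, with its log2 ratio of 3D to 2D in batch 3 on the horizontal axis and in batch 2 (left) or batch 1 (right) on the vertical axis. The genes called lie close to the line of equal response on the left, and on the right most of them lie between that line and 0, since batch 1 moved in the same direction by less.

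In the fit over all batches, 586 genes (3.48% of those tested) differed between 3D and 2D, of which 230 (1.37%) were higher and 356 (2.12%) were lower in 3D. All 586 moved in the same direction in every batch, while 23.8% of all genes were higher and 24.0% lower in every batch. The calls come from these same batches and favor genes that move alike in them, so this agreement is no separate support. The 3D and 2D libraries did not overlap for 204 of the higher and 288 of the lower genes, against 26.0% of all genes tested. The called genes moved less in batch 1: their median responses were 0.68, 1.38 and 1.35 for the higher genes and -0.51, -1.12 and -1.27 for the lower genes in batches 1, 2 and 3. The batch 1 response was smaller than the mean of the other batches in 221 of the 230 higher and in 326 of the 356 lower genes. Without batch 1, 6120 genes (36.3%) were called, 2929 higher (17.4%) and 3191 lower (18.9%), and these included 585 of the 586. Without batch 2 or without batch 3, no gene was called, with 1537 and 1530 genes at an unadjusted p under 0.05. The fit with no batch block called 52 genes, and a fit of the 6 D2A1 libraries alone called 15. On log2(TPM + 1) values, limma called 259 higher and 694 lower genes (27.2% of its calls higher, against 39.2% in edgeR). A change of at least 2-fold in the same direction in all 3 batches, with no test, was seen for 156 genes upward (0.927%) and 171 genes downward (1.02%).

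Among called genes with a mean of at least 5 CPM in a group, 4 of the 12 largest rises were in genes of the cytokine list. That list held 30 of the 16823 genes tested and 7 of the 230 called higher. Csf3 and Il6 reach a mean of 5 CPM only in the 3D group, where they are high, so the limit favors such rises. Csf3 encodes granulocyte colony-stimulating factor, Cxcl5 and Cxcl1 encode chemokines that attract neutrophils, and Il6 encodes interleukin-6. The largest falls within the same limit included genes of matrix and cell surface (Angptl7, Itgbl1, Mmp2, Col3a1, Mme) and of retinaldehyde oxidation (Aldh1a1 and its paralog Aldh1a7). The levels of these genes differed widely, from below 1 CPM for Csf3 in 2D to 685 and 686 CPM for Cxcl5 in 3D.

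Csf3 (chr11:98701263-98703629 on GRCm38) had 0.0202, 0.520 and 0.352 CPM in 2D and 0.383, 77.7 and 61.0 CPM in 3D. Its 3D libraries of batches 2 and 3 were far above every 2D library, but that of batch 1 lay within the 2D range, so that the groups overlapped. The fitted log2 fold change was 6.89 ± 1.43 (adjusted p = 0.0445). Cxcl5 (chr5:90759360-90761624) had 4.39, 49.7 and 24.8 CPM in 2D and 23.8, 685 and 686 CPM in 3D. The batch 1 library in 3D, though above its own 2D partner, lay below the 2D libraries of batches 2 and 3, and the log2 fold change was 3.91 ± 0.69 (adjusted p = 0.0354). Cxcl1 (chr5:90891241-90893115) had 7.12, 20.9 and 12.6 CPM in 2D and 22.5, 363 and 298 CPM in 3D, with no overlap and a log2 fold change of 3.75 ± 0.63 (adjusted p = 0.0327). Il6 (chr5:30013114-30019981) had 0.142, 1.85 and 1.21 CPM in 2D and 0.284, 34.9 and 27.1 CPM in 3D, with the batch 1 library in 3D below the 2D libraries of batches 2 and 3, and a log2 fold change of 3.85 ± 0.66 (adjusted p = 0.0331).

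The other 8 of the 12 largest rises came from several classes of gene. Prl2c2 and Prl2c3 encode proliferins, secreted relatives of prolactin, and their near-identical sequences mean that reads may have been divided between them. Prl2c2 had 0.121, 1.06 and 1.11 CPM in 2D and 1.89, 64.6 and 105 CPM in 3D and Prl2c3 had 0.303, 1.51 and 1.21 CPM in 2D and 2.20, 64.2 and 109 CPM in 3D. All 3 libraries in 3D were above all 3 in 2D for both, with log2 fold changes of 5.83 ± 1.04 and 5.41 ± 1.04. Adora1, the adenosine A1 receptor, had 0.364, 0.276 and 0.158 CPM in 2D and 1.80, 17.2 and 13.2 CPM in 3D (log2 fold change 4.99 ± 0.70). Gsta1, a glutathione S-transferase with close paralogs, had 2.83, 4.76 and 5.33 CPM in 2D and 10.03, 59.1 and 76.7 CPM in 3D (log2 fold change 3.33 ± 0.56). Both were higher in every 3D library than in any 2D library.

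Id2, an inhibitor of basic helix-loop-helix factors and a target of BMP signaling, had 9.43, 7.30 and 8.86 CPM in 2D and 38.1, 39.6 and 67.0 CPM in 3D and separated the cultures completely. Its log2 ratios were 2.01, 2.43 and 2.91 in batches 1 to 3, so that batch 1 rose nearly as much as the others. Rab15 (a small GTPase of endosomes), Acsbg1 (an acyl-CoA synthetase) and Hmcn2 (hemicentin-2, a matrix protein) had log2 fold changes of 3.13 ± 0.52, 3.07 ± 0.63 and 2.55 ± 0.48. Acsbg1 and Hmcn2 overlapped between the groups through batch 1. Adjusted p-values of these 8 genes ran from 0.0207 to 0.0429.

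Among the falls, Angptl7 (chr4:148495183-148500460), a secreted angiopoietin-like protein, had 86.4, 64.3 and 36.4 CPM in 2D and 11.7, 0.911 and 0.323 CPM in 3D. Every 3D library was below every 2D library, and the log2 fold change was -5.36 ± 0.76 (adjusted p = 0.0213). Itgbl1, a secreted protein related to integrin beta chains, had 74.6, 16.4 and 9.72 CPM in 2D and 12.1, 0.108 and 0.0294 CPM in 3D. The 3D library of batch 1 lay above the 2D library of batch 3, so that the groups overlapped, with a log2 fold change of -4.86 ± 0.92 (adjusted p = 0.0381). Mmp2 (chr8:92827291-92853420), the gelatinase that cleaves type IV collagen, had 4.51, 29.5 and 21.6 CPM in 2D and 0.553, 1.31 and 0.720 CPM in 3D. It fell without overlap and by a log2 fold change of -4.31 ± 0.61 (adjusted p = 0.0207).

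Col3a1, a fibrillar collagen, fell nearly evenly over the batches, with 45.2, 55.5 and 18.2 CPM in 2D and 4.81, 5.81 and 2.54 CPM in 3D and log2 ratios of -3.22, -3.25 and -2.83 in batches 1 to 3. Its fitted log2 fold change was -3.13 ± 0.44 (adjusted p = 0.0207). The 3D library of batch 1 lay with the other 3D libraries.

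Aldh1a1 (chr19:20492715-20643462), which makes retinoic acid from retinaldehyde, had 51.5, 4.10 and 6.10 CPM in 2D and 7.69, 0.139 and 0.132 CPM in 3D. The 3D library of batch 1 was above the 2D libraries of batches 2 and 3, but within each batch the level was lower in 3D, by log2 ratios of -2.74, -4.59 and -5.21. The fitted change was -4.23 ± 0.56 (adjusted p = 0.0184). Aldh1a7, a paralog on the same chromosome, had 35.2, 1.40 and 1.76 CPM in 2D and 8.58, 0.0772 and 0.176 CPM in 3D and a fitted change of -2.97 ± 0.52, so part of its counts may belong to Aldh1a1. Mme, the cell surface peptidase neprilysin, had 367, 166 and 128 CPM in 2D and 139, 8.54 and 7.75 CPM in 3D, with overlap through the 3D library of batch 1. Of the remaining falls, Pgm5, Gpm6b, Clca3a1 and Macc1 had fitted changes of -3.10 ± 0.63, -3.01 ± 0.52, -2.97 ± 0.56 and -2.97 ± 0.64. Of these, all but Gpm6b overlapped between the groups through batch 1.

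**Figure D2:**
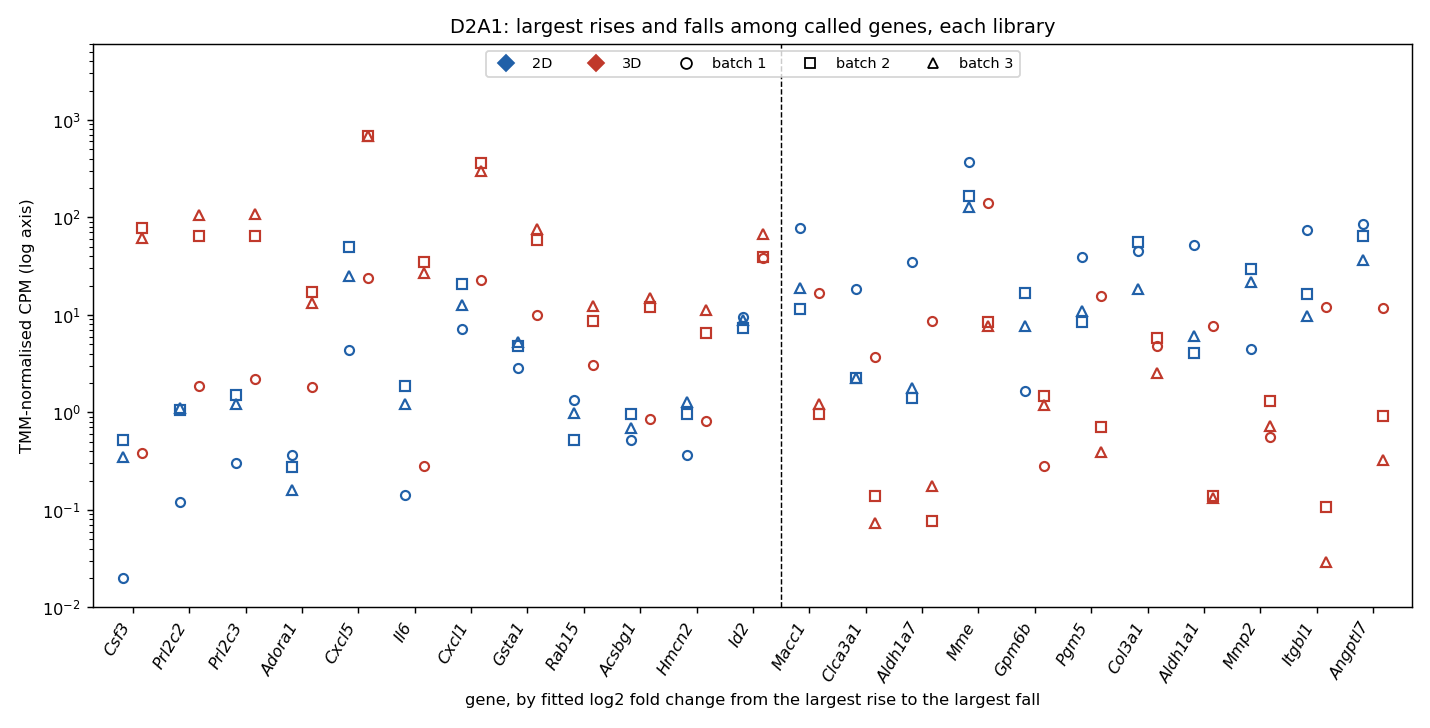
The rises and falls of largest fitted size that the text names, among called genes of at least 5 CPM in a group, on a log axis of CPM, with blue for 2D, red for 3D and 1 symbol for each batch. For most genes the 3D library of batch 1 (red circle) lies nearer to the 2D libraries than the other 3D libraries do, while Id2 and Col3a1 have all 3 red symbols together.

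Of 30 tested chemokine, cytokine and prostaglandin synthesis genes, 7 rose and 2 fell, shares of 23.3% and 6.67% against 1.37% and 2.12% of all genes. Without batch 1, 15 rose and 4 fell (50.0% and 13.3%, against 17.4% and 18.9% of all genes). These 4 background shares, 1.37% and 2.12% with all batches and 17.4% and 18.9% without batch 1, apply to every list below. Il1a, an alarmin, rose (adjusted p = 0.0359) from 0 counts in every 2D library (an upper limit of 3 counts each, for counting error only) to 0.0567, 0.911 and 1.76 CPM in 3D, of which the batch 1 value is near that limit. Cxcl16 and Mif rose by log2 fold changes of 1.28 ± 0.26 and 0.61 ± 0.13. Csf1, the macrophage growth factor, went the other way with 304, 219 and 172 CPM in 2D and 219, 125 and 108 CPM in 3D and a log2 fold change of -0.65 ± 0.11 (adjusted p = 0.0354). It fell within every batch, though the batches differed enough in level for the groups to overlap. Ccl9 had the lowest fitted value of the list, -2.39 ± 0.47.

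Of 17 tested NF-kB subunits and feedback targets, 5 rose (29.4%, against 1.37% of all genes) and none fell, and 7 rose without batch 1, with a list median of 0.19 on the log2 scale against 0.0037 for all genes. Nfkbia, the inhibitor that NF-kB induces, had 43.1, 35.4 and 71.4 CPM in 2D and 81.5, 155 and 120.1 CPM in 3D and a log2 fold change of 1.26 ± 0.26 (adjusted p = 0.0427). All 3D libraries were above all 2D libraries. Traf1, a receptor adaptor, had 0.728, 0.293 and 0.475 CPM in 2D and 1.26, 2.67 and 2.87 CPM in 3D (log2 fold change 2.31 ± 0.47), also without overlap. Bcl3 and Nfkbiz, nuclear IkB proteins, changed by 0.86 ± 0.16 and 1.02 ± 0.22, and Sod2, the mitochondrial superoxide dismutase, by 1.07 ± 0.22.

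The promoters of 3 genes of the cytokine list are shown because they carry the decamer that NF-kB dimers bind. They are the members with such a match and the smallest p: Cxcl1 and Il6, which rose, and Csf1, which fell. Each line gives the 250 bases before the RefSeq start on GRCm38.p6, 5′ to 3′ on the gene's strand, with the matches to the kB consensus in capitals: Cxcl1 at chr5:90890995-90891244, plus strand, Il6 at chr5:30012864-30013113, plus strand, and Csf1 at chr3:107760470-107760719, minus strand.
Cxcl1: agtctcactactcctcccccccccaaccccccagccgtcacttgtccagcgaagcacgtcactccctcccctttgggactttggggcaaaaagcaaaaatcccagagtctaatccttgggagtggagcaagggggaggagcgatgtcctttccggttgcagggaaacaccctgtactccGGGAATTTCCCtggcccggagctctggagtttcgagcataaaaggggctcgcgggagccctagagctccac
Il6: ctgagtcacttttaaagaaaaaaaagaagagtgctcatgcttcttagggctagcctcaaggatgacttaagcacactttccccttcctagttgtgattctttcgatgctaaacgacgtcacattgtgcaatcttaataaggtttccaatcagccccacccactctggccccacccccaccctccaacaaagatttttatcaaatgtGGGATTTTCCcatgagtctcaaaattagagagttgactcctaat
Csf1: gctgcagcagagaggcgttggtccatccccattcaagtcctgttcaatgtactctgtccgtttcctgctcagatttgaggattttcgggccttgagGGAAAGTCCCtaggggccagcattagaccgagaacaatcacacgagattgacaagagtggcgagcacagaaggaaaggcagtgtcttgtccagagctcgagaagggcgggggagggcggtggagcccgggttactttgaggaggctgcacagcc
In Cxcl1 a pair of overlapping matches forms 1 run that starts 71 bases before the start, in Il6 the match begins 44 bases and in Csf1 154 bases before it. Either strand was searched. Of the 21 tested list members with a promoter in the table, 9 (42.9%) held a match, against 7.01% of all 27025 promoters and 8.69% of those of tested genes. Of the 13 NF-kB pathway genes with a promoter, 7 (53.8%) did. A match is a string of letters and not evidence of binding, and the table lists no promoter for Cxcl5.

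Interferon-stimulated genes were the list with the lowest median. Over 40 tested genes the median log2 fold change was -1.44, and 36 were lower in 3D in all 3 batches, against 24.0% of all genes. In the fit over all batches 4 fell and none rose, against 2.12% of all genes lower, and without batch 1, 37 fell and none rose. The medians by batch were -0.33, -1.86 and -2.36. In bulk RNA, fewer cells expressing a gene and less RNA of it per cell cannot be told apart, here and in all that follows. The summed level of the list was 5602 to 10238 CPM over the 2D libraries and 1582 to 7998 CPM over the 3D libraries, so that the sums overlapped through batch 1.

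Stat2, a subunit of the interferon-activated transcription factor, had 142, 102 and 132 CPM in 2D and 112, 40.6 and 36.8 CPM in 3D. The 3D libraries of batches 2 and 3 were below every 2D library, and that of batch 1 lay within the 2D range. The log2 fold change was -1.15 ± 0.24 (adjusted p = 0.0453). B2m, the light chain of class I molecules, had 791, 560.4 and 562 CPM in 2D and 586, 201 and 182 CPM in 3D, with the same order of libraries and a log2 fold change of -1.17 ± 0.23 (adjusted p = 0.0396). H2-D1, a class I heavy chain whose reads are shared with related genes, had 449, 428 and 396 CPM in 2D and 328, 131 and 97.1 CPM in 3D, with no overlap and a change of -1.41 ± 0.30 (adjusted p = 0.0453).

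Ifit2, an inhibitor of translation of viral RNA, was the other member called, with 108, 47.3 and 61.0 CPM in 2D and 69.6, 25.7 and 23.8 CPM in 3D and a log2 fold change of -0.96 ± 0.19 (adjusted p = 0.0410). Ifit3 had the lowest fitted value of the list, -2.94 ± 0.82, but did not pass the threshold (adjusted p = 0.0634). Its levels were 197, 33.9 and 52.6 CPM in 2D and 79.5, 1.87 and 1.51 CPM in 3D, with log2 ratios of -1.31, -4.16 and -5.09 in batches 1 to 3. Bst2, an antiviral membrane protein, behaved likewise, with 881, 377 and 514 CPM in 2D and 579, 67.7 and 62.3 CPM in 3D (log2 fold change -1.91 ± 0.45, adjusted p = 0.0513).

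The promoters of B2m, Stat2 and Bst2 are shown as the members with the smallest p that hold an interferon-stimulated response element, searched as GAAANNGAAA on both strands and set in capitals. They lie at chr2:122147437-122147686, plus strand, chr10:128270248-128270497, plus strand and chr8:71537473-71537722, minus strand (GRCm38.p6, 250 bases before the RefSeq start, on the gene's strand).
B2m: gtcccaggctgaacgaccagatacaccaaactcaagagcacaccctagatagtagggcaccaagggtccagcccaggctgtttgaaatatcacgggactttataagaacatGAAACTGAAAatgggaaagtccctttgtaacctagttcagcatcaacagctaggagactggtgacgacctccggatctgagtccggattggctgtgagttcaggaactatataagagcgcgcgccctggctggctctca
Stat2: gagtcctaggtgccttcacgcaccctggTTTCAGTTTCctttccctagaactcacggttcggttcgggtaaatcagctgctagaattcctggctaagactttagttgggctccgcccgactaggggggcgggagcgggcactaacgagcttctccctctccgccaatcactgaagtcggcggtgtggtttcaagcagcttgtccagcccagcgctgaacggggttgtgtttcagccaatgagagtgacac
Bst2: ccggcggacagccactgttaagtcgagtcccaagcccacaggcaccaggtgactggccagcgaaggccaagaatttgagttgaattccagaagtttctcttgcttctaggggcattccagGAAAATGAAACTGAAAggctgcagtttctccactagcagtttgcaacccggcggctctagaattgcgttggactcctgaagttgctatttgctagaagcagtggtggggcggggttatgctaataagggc
The matches began 139 bases before the start in B2m, 222 in Stat2, where the element reads on the opposite strand, and 130 and 124 in Bst2, whose pair overlaps. Of the 29 tested list members with a promoter in the table, 11 (37.9%) held the motif, against 3.04% of all promoters and 2.69% of those of tested genes.

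Cell cycle genes had higher values in 3D, which mostly did not pass the test with batch 1 included. All 58 genes of mitosis had higher values in 3D in each of the 3 batches, against 23.8% of all genes, and their median log2 fold change was 0.95, with 0.25, 1.13 and 1.59 in batches 1, 2 and 3. In the fit over all batches 6 rose (10.3%, against 1.37%) and none fell, and without batch 1, 57 rose. Of 51 DNA replication genes, 3 rose (5.88%) and none fell (median 0.85), and 48 rose without batch 1. The sum of the mitosis genes was 2948 to 4411 CPM over the 2D libraries and 5275 to 8879 CPM over the 3D libraries.

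Cdc20, the activator of the anaphase-promoting complex, had 81.3, 68.4 and 57.2 CPM in 2D and 113, 198 and 227 CPM in 3D, with no overlap and a log2 fold change of 1.27 ± 0.27 (adjusted p = 0.0453). Spc24, a kinetochore subunit, had 21.0, 17.5 and 11.8 CPM in 2D and 35.8, 39.7 and 44.9 CPM in 3D (log2 fold change 1.24 ± 0.25, adjusted p = 0.0412). Psrc1, a spindle protein, had 12.6, 14.1 and 10.1 CPM in 2D and 20.1, 24.2 and 23.7 CPM in 3D (log2 fold change 0.88 ± 0.15, adjusted p = 0.0346). For all 3 every 3D library was above every 2D library. Among replication genes, Cdt1, which licenses origins, had 73.7, 84.4 and 87.3 CPM in 2D and 85.3, 139 and 155 CPM in 3D and Gmnn, its inhibitor geminin, had 16.5, 11.5 and 14.8 CPM in 2D and 21.2, 35.8 and 37.5 CPM in 3D. For Cdt1 the 3D library of batch 1 lay within the 2D range. Their log2 fold changes were 0.58 ± 0.13 and 1.07 ± 0.24, and that of Pold2, a DNA polymerase delta subunit, was 0.53 ± 0.11.

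Promoters of 3 mitosis genes are shown for the cell cycle homology region, searched as TTTGAA on both strands and set in capitals. Cdc20 lies at chr4:118437344-118437593, minus strand, Ccnb2 (cyclin B2) at chr9:70421555-70421804, minus strand and Ncapd2 (a condensin subunit) at chr6:125191587-125191836, minus strand, again with the 250 bases before the RefSeq start.
Cdc20: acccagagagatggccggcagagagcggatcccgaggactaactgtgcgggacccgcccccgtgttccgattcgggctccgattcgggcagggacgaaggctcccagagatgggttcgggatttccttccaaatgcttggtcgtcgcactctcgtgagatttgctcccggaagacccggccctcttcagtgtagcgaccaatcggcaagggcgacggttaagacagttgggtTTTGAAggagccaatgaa
Ccnb2: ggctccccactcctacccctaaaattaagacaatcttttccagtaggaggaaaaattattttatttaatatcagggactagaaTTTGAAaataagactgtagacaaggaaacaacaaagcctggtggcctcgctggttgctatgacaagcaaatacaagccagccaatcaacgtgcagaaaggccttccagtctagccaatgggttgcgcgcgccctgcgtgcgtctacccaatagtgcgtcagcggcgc
Ncapd2: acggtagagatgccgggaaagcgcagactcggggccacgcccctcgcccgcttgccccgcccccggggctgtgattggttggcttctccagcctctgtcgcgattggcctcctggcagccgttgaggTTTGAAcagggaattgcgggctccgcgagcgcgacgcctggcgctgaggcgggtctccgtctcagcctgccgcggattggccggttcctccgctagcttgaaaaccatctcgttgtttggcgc
Fitted log2 fold changes were 1.27 ± 0.27 for Cdc20 and 0.84 ± 0.19 for Ccnb2 (adjusted p = 0.0492), and Ncapd2 had 1.04 ± 0.24 (adjusted p = 0.0513). The motif began 18, 167 and 123 bases before the start. It was in 16 of 50 mitosis promoters (32.0%), against 16.3% of all promoters and 10.7% of those of tested genes. CCAAT, bound by NF-Y, was in 36 of the 50 (72.0%), against 34.5% and 36.4%.

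Several genes that the study stained, blotted or assayed in the context of dormancy and senescence did not pass the threshold with all batches. Mki67, the proliferation antigen, had 190.4, 117 and 108 CPM in 2D and 233, 355 and 405 CPM in 3D, with every 3D library above every 2D library (log2 fold change 1.16 ± 0.34, adjusted p = 0.0687). Lmnb1, lamin B1, had 103, 50.1 and 46.4 CPM in 2D and 123, 151 and 172 CPM in 3D (log2 fold change 1.12 ± 0.37, adjusted p = 0.0858), again without overlap. Cdkn1b, the inhibitor p27, had 74.1, 107 and 133 CPM in 2D and 88.3, 72.5 and 66.9 CPM in 3D (log2 fold change -0.46 ± 0.20, adjusted p = 0.154), with batch 1 moving up and the others down. Fitted values were -0.14 ± 0.27 for Cdkn1a (p21), -0.27 ± 0.09 for Cdkn2a (p16 and p19Arf), 0.35 ± 0.17 for Trp53 and -0.02 ± 0.08 for Mdm2, with adjusted p from 0.0950 to 0.861. None of these passed in that fit. Without batch 1 the threshold was passed by Mki67, Lmnb1, Cdkn1b and Cdkn2a, with adjusted p-values of 2.10e-04, 3.96e-04, 0.00278 and 0.0127, and not by Cdkn1a, Trp53 and Mdm2 (0.0687, 0.0661 and 0.854).

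Glb1, the gene of lysosomal beta-galactosidase, fell, with 63.4, 65.5 and 74.6 CPM in 2D and 55.0, 37.4 and 31.7 CPM in 3D and a log2 fold change of -0.74 ± 0.17 (adjusted p = 0.0480). Of the 18 tested CDK inhibitors, G1 cyclins and senescence markers, it was the only one to fall, and Cdkn2c (p18) the only one to rise, with 71.8, 76.3 and 70.9 CPM in 2D and 85.4, 134 and 112 CPM in 3D and a change of 0.57 ± 0.12 (adjusted p = 0.0472). These are 5.56% each way, against 1.37% higher and 2.12% lower of all genes, and 5 rose and 6 fell without batch 1. The list median was 0.01. Of 20 p53 targets, 1 was called (5 rose and 5 fell without batch 1): Fas, the death receptor, rose from 4.77, 3.46 and 3.60 CPM to 6.98, 16.7 and 15.5 CPM (log2 fold change 1.68 ± 0.38).

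**Figure D3:**
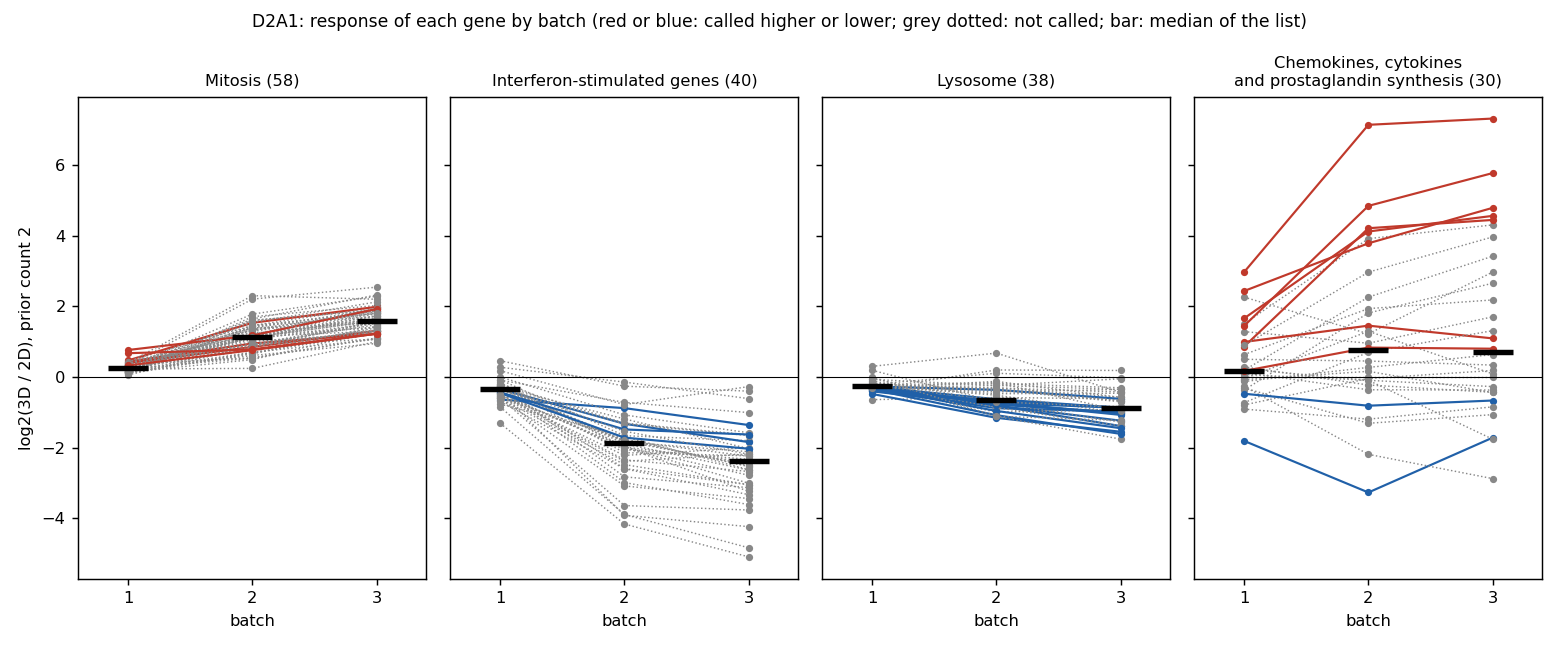
Each line joins the log2 ratios of 3D to 2D of 1 gene in batches 1, 2 and 3, for the 58 mitosis, 40 interferon-stimulated, 38 lysosomal and 30 cytokine genes tested, with called genes in red or blue and the list median as a black bar. All mitosis lines stay above 0, the interferon-stimulated genes have a median of -0.33 in batch 1 and -2.36 in batch 3, and the cytokine genes spread in both directions.

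Lysosomes degrade material from endocytosis and autophagy. Of 38 tested lysosomal genes, 13 fell (34.2%, against 2.12% of all genes) and none rose, and 33 were lower in all 3 batches. Without batch 1, 29 fell. The median was -0.61, with -0.27, -0.65 and -0.87 by batch. Hexa, the alpha chain of beta-hexosaminidase, had 132, 109 and 125 CPM in 2D and 94.9, 48.8 and 42.5 CPM in 3D, with no overlap (log2 fold change -1.08 ± 0.18, adjusted p = 0.0329). Npc1, the cholesterol exporter, had 74.8, 70.3 and 81.7 CPM in 2D and 60.4, 42.2 and 44.7 CPM in 3D (log2 fold change -0.64 ± 0.11, adjusted p = 0.0319). Both separated the cultures completely.

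Promoters of Atp6v1a (a subunit of the proton pump) and Naglu (a glycosaminoglycan hydrolase) are shown as the lysosomal genes of smallest p with CACGTG, the palindromic core of the element that TFEB binds, in capitals. They lie at chr16:44139260-44139509, minus strand, and chr11:101069844-101070093, plus strand.
Atp6v1a: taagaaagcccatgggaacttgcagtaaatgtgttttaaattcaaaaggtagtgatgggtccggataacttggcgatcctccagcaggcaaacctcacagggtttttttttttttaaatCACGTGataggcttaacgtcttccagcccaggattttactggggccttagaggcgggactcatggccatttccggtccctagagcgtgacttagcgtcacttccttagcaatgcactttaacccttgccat
Naglu: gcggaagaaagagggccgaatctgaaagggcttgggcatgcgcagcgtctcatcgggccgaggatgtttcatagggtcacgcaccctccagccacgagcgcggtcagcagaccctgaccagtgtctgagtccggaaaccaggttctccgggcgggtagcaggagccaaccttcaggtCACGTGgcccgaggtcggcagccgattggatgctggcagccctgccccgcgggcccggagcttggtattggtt
Atp6v1a had 339, 322 and 383 CPM in 2D and 284, 188 and 191 CPM in 3D (log2 fold change -0.69 ± 0.13), and Naglu had 56.9, 62.2 and 62.9 CPM in 2D and 44.6, 29.4 and 20.6 CPM in 3D (log2 fold change -1.02 ± 0.21). Every 3D library was below every 2D library for both. The hexamer began 131 and 73 bases before the start. It was in 10 of 30 lysosomal promoters (33.3%), against 6.05% of all promoters and 8.1% of those of tested genes.

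NRF2 switches on genes of glutathione and thioredoxin metabolism. Of 22 tested NRF2 targets and antioxidant genes, 8 rose (36.4%, against 1.37%) and none fell (14 and 1 without batch 1), with a median of 0.50 and medians of 0.30, 0.65 and 0.62 by batch. Gclm, the modifier subunit of the enzyme that starts glutathione synthesis, had 86.9, 59.2 and 83.4 CPM in 2D and 147, 141 and 188 CPM in 3D. Its log2 fold change was 1.06 ± 0.12 (adjusted p = 0.00955). Gsta4, which conjugates lipid peroxidation products to glutathione, had 82.8, 78.0 and 107 CPM in 2D and 141, 199 and 226 CPM in 3D (log2 fold change 1.06 ± 0.12, adjusted p = 0.0117). Nqo1, the quinone reductase, had the largest value of the list, with 25.7, 26.3 and 44.9 CPM in 2D and 81.5, 81.2 and 119 CPM in 3D and a change of 1.56 ± 0.33 (adjusted p = 0.0453). None of the 3 overlapped between cultures, and batch 1 rose with the others. Sod2 and Txn1 also rose, by 1.07 ± 0.22 and 0.71 ± 0.15.

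Lists of protein production and turnover had positive medians and few calls. Of 80 cytosolic ribosomal protein genes, 78 were higher in 3D in all batches and 3 rose (3.75%, against 1.37% of all genes, and 67 without batch 1), with a median of 0.37. Rpl41 had 405, 273 and 294 CPM in 2D and 523, 614 and 612 CPM in 3D (log2 fold change 0.85 ± 0.17, adjusted p = 0.0394), without overlap, though pseudogenes of ribosomal proteins can share reads. Of 31 proteasome genes, 2 rose (Psma7 and Psmb3, by 0.50 ± 0.11 and 0.52 ± 0.11) and 28 were higher in all batches, with 20 higher and 2 lower called without batch 1. Of 77 mitochondrial ribosomal protein genes, 2 rose, Mrpl42 and Mrps24, by 0.55 ± 0.12 and 0.43 ± 0.09. That is 2.60%, near the share of all genes, and without batch 1 it was 28 higher and 5 lower. None of 44 splicing factors, 30 ribosome biogenesis genes and 22 chaperones was called, with 30, 12 and 12 higher and 0, 0 and 1 lower without batch 1.

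Metabolic and stress lists were mixed. In glycolysis, 2 of 19 rose: Ldha, lactate dehydrogenase A, had 918, 990.4 and 959 CPM in 2D and 1113, 2038 and 1877 CPM in 3D (log2 fold change 0.75 ± 0.16) and Gapdh had 1409, 1425 and 1464 CPM in 2D and 1813, 2640.4 and 2533 CPM in 3D (log2 fold change 0.67 ± 0.14), both without overlap. Without batch 1, 9 rose and 4 fell. None of 20 hypoxia genes passed, and 5 rose and 4 fell without batch 1. Elovl5, a fatty acid elongase, was the only one of 14 fatty acid synthesis genes called and fell by 0.58 ± 0.13 on the log2 scale (3 rose and 2 fell without batch 1). Among 20 genes of the unfolded protein response, Sec61b, a translocon subunit, rose by 0.92 ± 0.19 and Herpud1 fell by 0.62 ± 0.14, whereas 16 rose and 2 fell without batch 1. The sterol synthesis genes split by batch, with medians of -0.25, 1.15 and 0.41 (all 24 lower in batch 1 and all 24 higher in batch 2). None was called with all batches, and 17 rose without batch 1. The integrated stress response had medians of 0.05, -1.12 and -0.30, and none of 31 was called, although 18 were lower and 2 higher without batch 1. Ddit3 (CHOP) showed this spread: it had 20.9, 78.8 and 31.9 CPM in 2D and 16.8, 14.9 and 14.9 CPM in 3D (log2 fold change -1.44 ± 0.42, adjusted p = 0.0670), and its 2D library of batch 2 stood far above the rest.

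**Figure D4:**
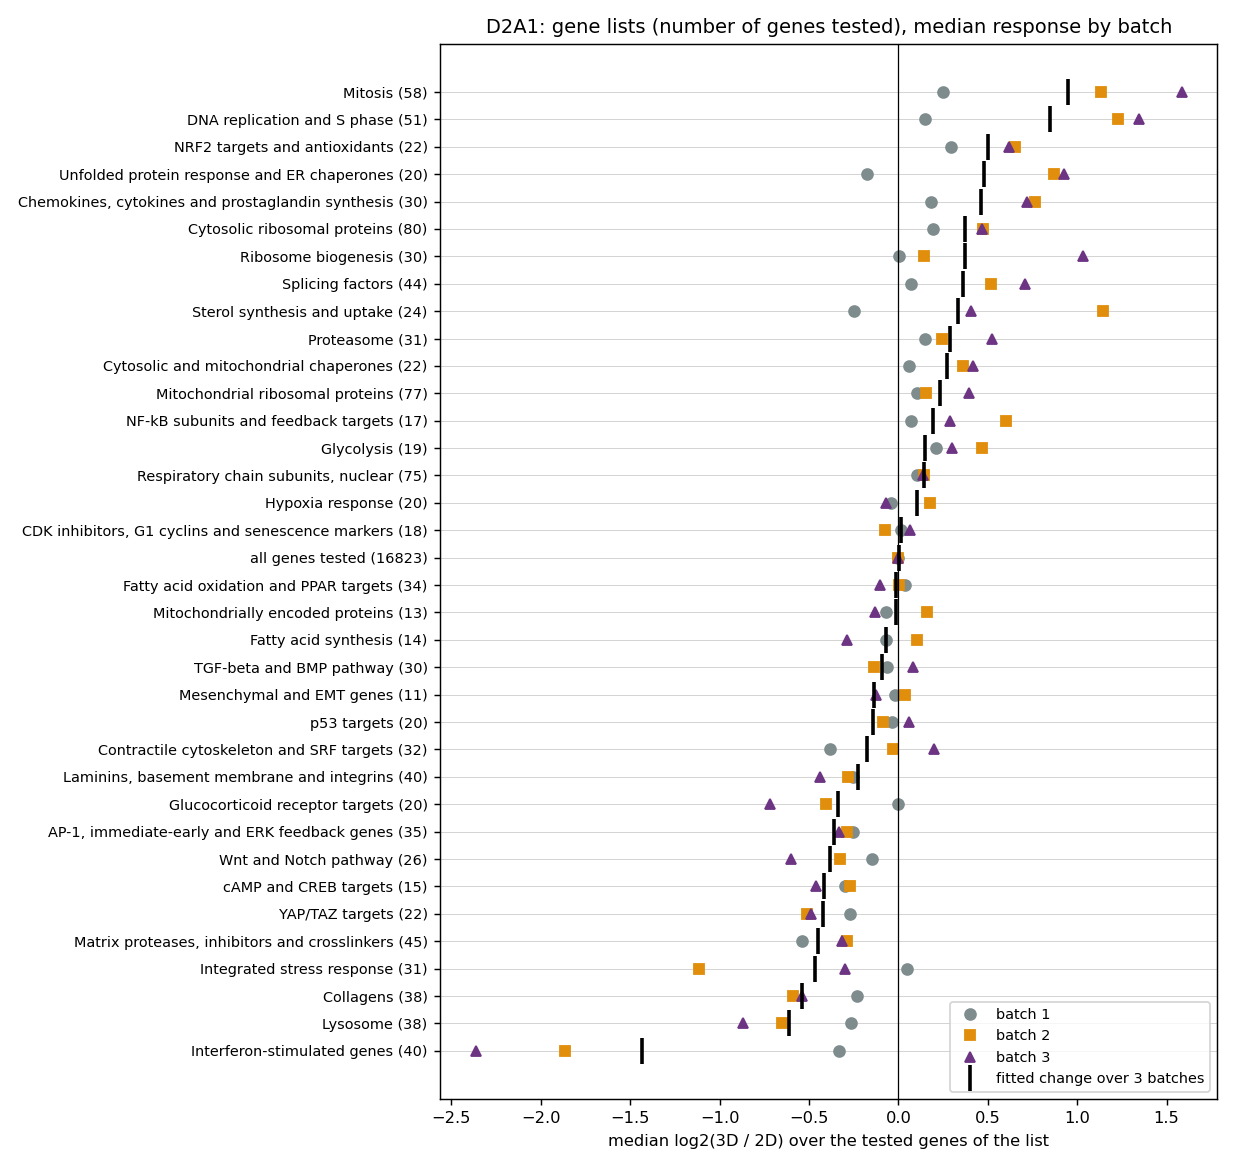
For each list, with its number of tested genes in parentheses, symbols give the median log2 ratio of 3D to 2D in each batch and a bar the median of the fitted change. Among the pathway lists mitosis and DNA replication have the highest medians (0.95 and 0.85) and interferon-stimulated genes the lowest (-1.44), and batch 1 (circles) lies nearest to 0 for most of these.

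Of 45 tested matrix proteases, inhibitors, crosslinkers and glycoproteins, 4 fell and 2 rose (8.89% and 4.44%, against 2.12% and 1.37% of all genes), and 19 fell and 7 rose without batch 1. Tgm2, the crosslinking transglutaminase, had 249.5, 309 and 218 CPM in 2D and 135, 91.4 and 57.2 CPM in 3D, without overlap (log2 fold change -1.51 ± 0.20, adjusted p = 0.0184). Mmp14, the membrane protease that activates Mmp2, had 259, 265 and 262 CPM in 2D and 146, 146 and 109 CPM in 3D (log2 fold change -0.98 ± 0.15, adjusted p = 0.0255). It too fell in every batch and without overlap. Mmp11 fell by 1.34 ± 0.27, and Mmp9 and Adam8 rose by 2.14 ± 0.42 and 1.12 ± 0.25 from levels under 2 CPM. The summed level of the list was 15602 to 20372 CPM in 2D and 7423 to 10299.7 CPM in 3D, and Fn1, fibronectin, which is also in the mesenchymal list below, had 2555, 11183 and 8657 CPM in 2D and 1167, 3516 and 2372 CPM in 3D (log2 fold change -1.61 ± 0.40, adjusted p = 0.0544).

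Of 38 tested collagen genes, 2 fell (5.26%, against 2.12%) and none rose, with a median of -0.54, and 16 fell and 2 rose without batch 1. Besides Col3a1 the other was Col6a3, with 4.75, 8.71 and 5.54 CPM in 2D and 3.46, 1.51 and 0.809 CPM in 3D (log2 fold change -1.82 ± 0.37). Of 40 laminin, basement membrane and integrin genes, 1 fell and 1 rose, 2.5% each way and near the shares of all genes. Without batch 1 this was 12 and 4. Hspg2, perlecan, itself a component of Matrigel, had 307, 338 and 335 CPM in 2D and 174, 131 and 114 CPM in 3D, without overlap (log2 fold change -1.22 ± 0.28, adjusted p = 0.0489). Lamb3, a chain of laminin-332, rose at very low levels, with 0.142, 0.0650 and 0.105 CPM in 2D and 0.525, 0.494 and 0.456 CPM in 3D. No integrin gene was called with all batches.

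Of 32 contractile cytoskeleton genes, 2 fell and 1 rose (6.25% and 3.12%, against 2.12% and 1.37%), while 5 fell and 7 rose without batch 1. Myh9, the nonmuscle myosin heavy chain, had 993, 1114 and 1013 CPM in 2D and 699, 496 and 534 CPM in 3D, without overlap (log2 fold change -0.85 ± 0.16, adjusted p = 0.0359), and Cnn2, calponin 2, fell by 0.99 ± 0.22. Tagln2, transgelin 2, had 102, 172 and 125 CPM in 2D and 163, 311 and 299.7 CPM in 3D and rose (log2 fold change 0.92 ± 0.15). Of 22 YAP/TAZ targets, 1 was called: Lats2, the kinase that feeds back on YAP, had 84.0, 58.9 and 50.7 CPM in 2D and 48.1, 37.5 and 34.4 CPM in 3D (log2 fold change -0.67 ± 0.14, adjusted p = 0.0453). The median of these targets was -0.42, and 12 of the 22 were lower in all batches, against 24.0% of all genes. Without batch 1, 10 fell and 1 rose.

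Immediate-early and ERK feedback genes had a median of -0.36, and 2 of 35 fell (5.71%, against 2.12%), with 14 lower and 5 higher without batch 1. Spry1, an inhibitor of receptor tyrosine kinase signaling, had 229.6, 418 and 298 CPM in 2D and 119, 41.2 and 27.4 CPM in 3D, without overlap (log2 fold change -2.38 ± 0.54, adjusted p = 0.0488). Dusp1, a phosphatase of MAP kinases that glucocorticoids also induce, had 301, 186 and 281 CPM in 2D and 129, 56.3 and 50.4 CPM in 3D (log2 fold change -1.77 ± 0.30, adjusted p = 0.0321). It fell in all 3 batches.

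Of 30 genes of the TGF-beta and BMP pathway, 4 rose (13.3%, against 1.37% of all genes) and 3 fell (against 2.12%), with a median of -0.09, and 9 rose and 7 fell without batch 1. The 4 that rose are Id1, Id2, Id3 and Bambi, all known targets of BMP signaling. Id1 had 20.5, 37.0 and 40.9 CPM in 2D and 49.1, 86.9 and 95.3 CPM in 3D, with ratios of 1.26, 1.23 and 1.22 in batches 1 to 3, and a fitted change of 1.24 ± 0.16 (adjusted p = 0.0184). Id3 had 43.1, 21.7 and 31.6 CPM in 2D and 102, 126 and 137 CPM in 3D (log2 fold change 1.93 ± 0.25, adjusted p = 0.0184), and Bambi, a decoy receptor, had 5.12, 2.71 and 4.80 CPM in 2D and 8.35, 8.34 and 10.4 CPM in 3D (log2 fold change 1.15 ± 0.22). All 4 separated the cultures completely. The 3 that fell were the receptors Tgfbr2 and Tgfbr3, by 1.24 ± 0.26 and 1.39 ± 0.29 on the log2 scale, and Ltbp3, which helps to store latent TGF-beta, by 0.46 ± 0.10.

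In the Wnt and Notch list, 2 of 26 rose and 3 fell (7.69% and 11.5%), and 3 rose and 11 fell without batch 1. Hey1, a Notch target, had 0.486, 0.0975 and 0.369 CPM in 2D and 2.16, 1.75 and 2.72 CPM in 3D (log2 fold change 2.84 ± 0.45, adjusted p = 0.0282), and Nrarp, another, had 0.789, 1.22 and 1.53 CPM in 2D and 1.82, 3.80 and 3.41 CPM in 3D (log2 fold change 1.34 ± 0.20, adjusted p = 0.0250). Both were low but separate in every library. Axin2, a target and inhibitor of Wnt signaling, had 35.7, 46.8 and 50.5 CPM in 2D and 20.2, 11.7 and 12.1 CPM in 3D (log2 fold change -1.57 ± 0.27, adjusted p = 0.0333). Wisp1 fell by 1.08 ± 0.21, and the receptor Notch2 fell by 0.66 ± 0.14. Of 11 mesenchymal genes, Snai2 and Zeb2, repressors of epithelial genes, fell (3 fell and 3 rose without batch 1). Snai2 had 19.9, 15.7 and 10.5 CPM in 2D and 8.35, 5.24 and 5.97 CPM in 3D (log2 fold change -1.22 ± 0.18, adjusted p = 0.0234) and Zeb2 had 77.8, 113 and 93.5 CPM in 2D and 54.1, 64.7 and 58.7 CPM in 3D (log2 fold change -0.67 ± 0.13, adjusted p = 0.0397). Elf3, an epithelial transcription factor, was the only one of 12 tested epithelial markers called with all batches (4 rose and 1 fell without batch 1) and rose, with 3.20, 2.36 and 3.96 CPM in 2D and 6.17, 10.04 and 8.44 CPM in 3D (log2 fold change 1.43 ± 0.29).

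Lists tied to medium components are given because hydrocortisone and cholera toxin, which raises cAMP, are in the 3D medium. Of 20 glucocorticoid receptor targets, 1 rose (Nfkbia) and 1 fell (Dusp1), with a median of -0.34 and 12 lower and 4 higher without batch 1. Errfi1, a feedback inhibitor of the EGF receptor, had 198, 328 and 245 CPM in 2D and 121, 89.7 and 61.7 CPM in 3D (log2 fold change -1.50 ± 0.35, adjusted p = 0.0513). Of 15 cAMP targets, 2 fell and none rose (median -0.42, and 7 fell and 4 rose without batch 1). Sik1, a kinase that CREB induces, had 131, 159.9 and 147 CPM in 2D and 107, 63.5 and 61.5 CPM in 3D, without overlap (log2 fold change -0.97 ± 0.18, adjusted p = 0.0359). Pde4d, a phosphodiesterase, had 5.58, 40.0 and 25.1 CPM in 2D and 3.57, 17.2 and 17.5 CPM in 3D (log2 fold change -0.82 ± 0.18).

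Markers of other cells were checked as lists. Of 10 genes of the EHS tumor from which Matrigel is made, 4 passed the filter and none was called, with a median of 0.51. Without batch 1, Afp rose and Gata4 fell. Lama1, the laminin chain of that tumor, had 0 counts in all 6 libraries. Gata4 was present at 51.7, 57.8 and 61.4 CPM in 2D and 49.0, 48.6 and 44.2 CPM in 3D, and every 3D library was below every 2D library (log2 fold change -0.27 ± 0.11, adjusted p = 0.122). Afp, alpha-fetoprotein, of the same list, had 0.829, 0.553 and 0.158 CPM in 2D and 1.23, 2.05 and 2.81 CPM in 3D, with every 3D library above every 2D library (log2 fold change 1.87 ± 0.60, adjusted p = 0.0795, and 0.00688 without batch 1). The summed EHS list was 52.9 to 61.8 CPM in 2D and 47.3 to 51.2 CPM in 3D. The 9 leukocyte markers summed to 4.31 to 19.3 CPM in 2D and 4.66 to 6.30 CPM in 3D, with Adgre1 at 0. Of the 2 tested, none was called with all batches, and 1 rose and 1 fell without batch 1. Cd68 had 4.21, 9.69 and 19.1 CPM in 2D and 6.04, 4.09 and 3.73 CPM in 3D (log2 fold change -1.28 ± 0.58, adjusted p = 0.171, and 0.0109 without batch 1). Csf1r had 0.0202, 0.0325 and 0.0879 CPM in 2D and 0.0993, 0.479 and 1.32 CPM in 3D (adjusted p = 0.0567, and 0.00249 without batch 1). The 5 endothelial markers summed to under 1 CPM in every library, and neither of the 2 tested was called with or without batch 1. Fibroblast markers were present: the 6 summed to 169.5 to 260.0 CPM in 2D and 71.3 to 104.0 CPM in 3D, beside 153 to 226 CPM and 96.3 to 173 CPM for the epithelial markers. The epithelial sums were mostly Krt18, and the median log2 fold change of the 12 epithelial markers tested was 1.19, with 7 higher and 1 lower in all batches. Epcam had 0.0607, 0.0163 and 0.0176 CPM in 2D and 0.184, 0.154 and 0.118 CPM in 3D (log2 fold change 2.29 ± 0.55, adjusted p = 0.0526), and Grhl2, an epithelial transcription factor, had 0.344, 0.520 and 0.457 CPM in 2D and 0.695, 2.27 and 2.23 CPM in 3D (log2 fold change 2.01 ± 0.67, adjusted p = 0.0849). Epcam had at most 3 counts in each 2D library, and 12 of the 17 epithelial markers were below 1 CPM in all 6 libraries. The median of the epithelial list thus rests largely on trace levels, while Krt18 was lower in 3D in each batch. Of the 5 fibroblast markers tested, with a median of 0.06 and fitted values from -3.13 to 4.36, Col3a1 fell (2 fell and 2 rose without batch 1). Thy1 was at 0. Dcn, decorin, was higher in 3D in every batch, with 0.142, 0.829 and 0.861 CPM in 2D and 0.482, 6.996 and 2.13 CPM in 3D (log2 fold change 2.16 ± 1.01, adjusted p = 0.177, and 0.00935 without batch 1). The part of such cells in the results was not tested. Pdgfrb had 171, 95.8 and 85.3 CPM in 2D and 56.3, 8.37 and 4.54 CPM in 3D (log2 fold change -2.86 ± 0.67, adjusted p = 0.0513).

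The difference from D2.OR was tested as an interaction in the same fit. It passed the threshold for 4 genes (0.0238% of 16823), and for 2999 (17.8%) without batch 1. Chst1, a keratan sulfate sulfotransferase, had 11.3, 50.1 and 46.7 CPM in 2D and 4.31, 20.1 and 15.6 CPM in 3D in D2A1, with log2 ratios of -1.38, -1.32 and -1.58 in batches 1 to 3 (fitted log2 fold change -1.43 ± 0.12, adjusted p = 0.00925). In D2.OR, where it was barely expressed, it averaged 0.184 ± 0.119 CPM in 2D and 0.634 ± 0.430 CPM in 3D (SD, n = 3). The D2.OR response exceeded that of D2A1 by 3.18 ± 0.22 on the log2 scale (adjusted p = 0.00194). Sstr2, a somatostatin receptor, had 0.688, 1.06 and 0.457 CPM in 2D and 0.199, 0.185 and 0.0735 CPM in 3D in D2A1 and rose in D2.OR (log2 fold change 1.43 ± 0.25), a difference of 3.70 ± 0.37 (adjusted p = 0.0271).

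Aldh1a7 fell in D2A1 (above) and rose in D2.OR by a log2 value of 4.23 ± 0.59, where it averaged 1.12 ± 1.83 CPM in 2D and 26.9 ± 44.7 CPM in 3D, a difference of 7.21 ± 0.79 (adjusted p = 0.0318). Aldh1a1 had 1.82 ± 0.55 in D2.OR, and the difference of 6.05 ± 0.76 did not pass (adjusted p = 0.0539). Dnajc22, a cochaperone, had 9.20, 8.97 and 8.05 CPM in 2D and 9.87, 14.9 and 14.9 CPM in 3D in D2A1 (adjusted p = 0.0747) and fell in D2.OR by a log2 value of -1.70 ± 0.18. The difference was -2.27 ± 0.25 (adjusted p = 0.0318).

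For the cytokines D2.OR had fitted log2 responses of -0.01 ± 1.303 for Csf3, 0.27 ± 0.61 for Cxcl5, 0.57 ± 0.56 for Cxcl1 and -0.82 ± 0.53 for Il6, none of which passed. Its levels of 3 of them were already high on plastic: Cxcl5 averaged 699 ± 434 CPM in 2D and 656 ± 299 CPM in 3D, Cxcl1 82.2 ± 39.3 CPM in 2D and 107 ± 29.4 CPM in 3D and Il6 31.6 ± 24.2 CPM in 2D and 17.2 ± 13.6 CPM in 3D (SD, n = 3). The differences of -6.91 ± 1.93, -3.64 ± 0.90, -3.18 ± 0.83 and -4.68 ± 0.84 had adjusted p-values of 0.155, 0.129, 0.145 and 0.0892 and did not pass. Without batch 1 these were 0.00424, 0.00299, 0.00299 and 0.00167. The interferon-stimulated genes had a median response of -1.18 in D2.OR beside -1.44 in D2A1, and the mitosis genes 0.25 beside 0.95, with no member of either list past the threshold for the difference. Without batch 1 the difference passed for 25 of 40 interferon-stimulated, 45 of 58 mitosis and 37 of 51 DNA replication genes, against 17.8% of all genes. Id2 rose in both lines (3.69 ± 0.50 in D2.OR, adjusted p = 0.0138). Of the 230 genes higher in D2A1, 9 were called in D2.OR and 8 of those rose, and of the 356 lower genes, 30 were called and 25 of those fell, while 273 of all genes (1.62%) were called in D2.OR.

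**Figure D5:**
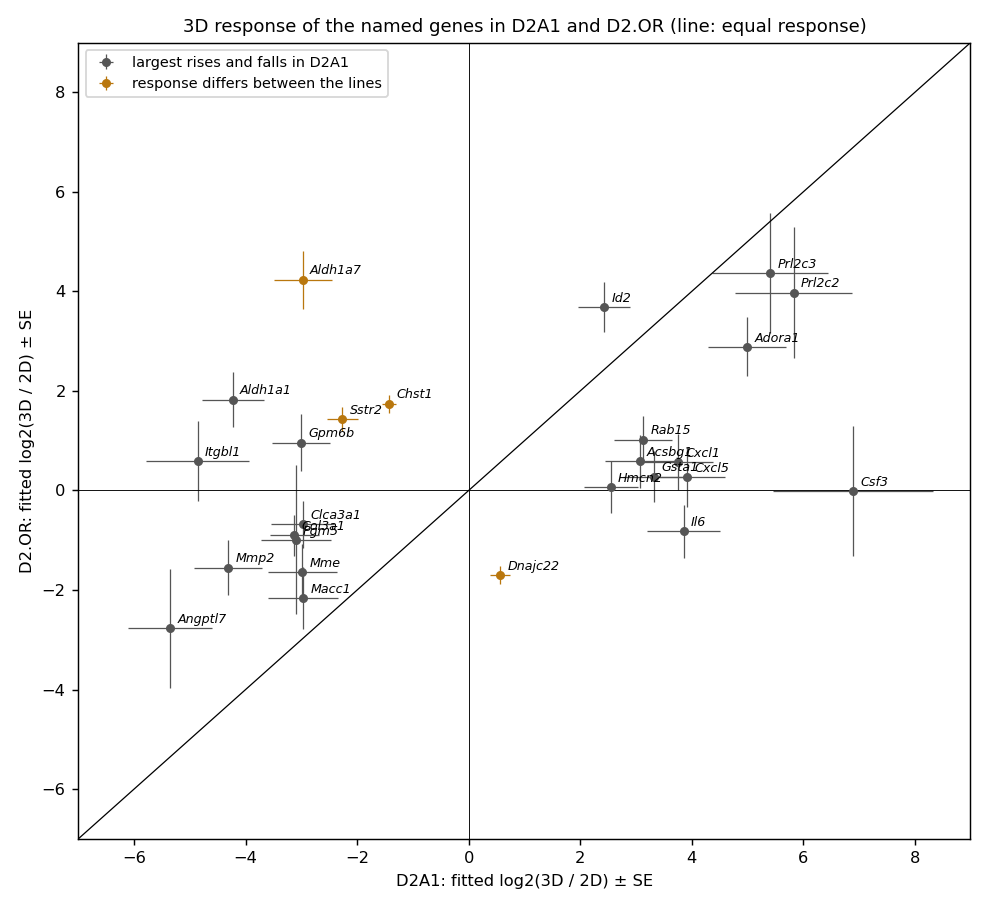
Fitted log2 ratio of 3D to 2D in D2A1 (horizontal) and D2.OR (vertical), with standard errors, for the named genes of largest change and the genes whose response differed between the lines. Csf3, Cxcl5, Cxcl1 and Il6 have D2.OR values between -0.82 and 0.57 and lie between 3.75 and 6.89 for D2A1, and Chst1, Sstr2 and Aldh1a7 lie in the quadrant of a fall in D2A1 and a rise in D2.OR.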

How the data were processed

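RNA of 12 libraries was sequenced by the study, 3 for each line and culture. Per the labels and methods, the authors checked reads with FastQC 0.11.4, trimmed them with Trimmomatic 0.32, aligned them to GRCm38 with STAR 2.5.3 and quantified genes with RSEM 1.3.0. Strandedness was not given in the sources used here, so overlapping and antisense genes cannot be told apart. The deposited expected counts were rounded to integers, then tested with edgeR 4.0.16 in R 4.3.3 (TMM, filterByExpr, quasi-likelihood, group plus batch, Benjamini-Hochberg adjusted p, threshold 0.05) over all 12 libraries. TPM values, made by the authors with RSEM, served limma 3.58.1 alternatives with a pseudocount of 1 or 0.1, and DESeq2 1.42.0 was the other test. The deposited FPKM values were not used. Log2 ratios within a batch used a prior count of 2.

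Same-numbered D2A1 libraries deviated together (r = 0.44, 0.36 and 0.12 for batches 1 to 3), but batches 2 and 3 were not set apart from each other, since their differently numbered pairs had r = 0.25 and 0.22. Pairs with batch 1 had -0.42 to -0.21. The study's model has a batch term, and the labels tie each number to 1 sequencing lane, so the number entered as a batch block.

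Depth per library (47589611 to 66087229 expected counts in D2A1) limits low genes. For well-covered genes, counting error is small beside the biological coefficient of variation of 21.2%. It is not small for genes with a few counts or none in some 2D libraries, such as Csf3, Csf1r, Epcam and Il1a. On simulated data for this comparison, run on 16438 genes, 47.5% of 99 genes changed 2-fold and 78% of 100 changed 4-fold were recovered, with 11 false calls.

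The comparison and the gene lists were chosen with earlier results of these data known. Named genes are the 12 largest called rises and falls with a mean of at least 5 CPM in a group, up to 3 members of smallest p per list and list extremes, the genes the study assayed, and those with a called interaction. Genes named outside this rule, after their values were seen, are Adam8, Atp6v1a, Bst2, Ccnb2, Cxcl16, H2-D1, Krt18, Ltbp3, Mif, Mmp9, Mmp11, Naglu, Ncapd2, Nfkbiz, Notch2, Tgfbr2, Tgfbr3, Txn1, Vim and Wisp1, and the zero or trace markers. A few genes that the rule names are not reported here. Promoter motifs were counted in the RefSeq GRCm38.p6 table, which had a promoter for 11148 of 16805 tested gene symbols.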

Additional observations from a re-analysis of the deposited data

Results flagged for a closer look

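The response to 3D culture differed between the lines for 4 genes by the interaction term of the edgeR fit. The D2.OR response minus the D2A1 response was 3.18 on the log2 scale for Chst1, 3.70 for Sstr2, 7.21 for Aldh1a7 and -2.27 for Dnajc22, with adjusted p-values of 0.00194, 0.0271, 0.0318 and 0.0318. In D2A1 the response had the same direction in all 3 batches for each of the 4, as it had upward for 23.8% and downward for 24.0% of all genes. Chst1 was below 1 CPM on average in both D2.OR groups, and the counts of Aldh1a7 may be shared with Aldh1a1.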

How the results depend on the processing

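The 586 calls (230 higher, 356 lower) rest on the block, on the pooled spread and on batches 2 and 3. With no replicate block, 52 genes were called (19 higher, 33 lower), and all 586 kept their sign. Each group has 1 library in each batch, so dropping the block hardly moves a fitted change, and the kept signs are no support. With only the 6 D2A1 libraries 15 were called (7 and 8), with no filter on low counts 1117 (451 and 666), by the DESeq2 likelihood-ratio test 3429 (1457 and 1972), and by limma 953 on log2(TPM + 1) (694 lower) and 1149 on log2(TPM + 0.1) (837 lower). Leaving out 1 library or batch gave 0 to 6120 calls (0 to 2929 higher, 0 to 3191 lower). No gene was called without the D2A1 2D library of batch 2 (3522 at an unadjusted p under 0.05) or the D2A1 3D libraries of batches 2 and 3 (3234 and 2984), against 5282 in the fit reported. Without the D2A1 2D library of batch 1, 5237 were called (2643 higher, 2594 lower), and without the 3D library of batch 1, 2208. Without the D2A1 2D library of batch 3, 21 were called, and without D2.OR libraries of batch 2 or 3, between 74 and 105 (359 without the D2.OR 3D library of batch 1). The cause was not tested.

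For the difference between the lines, 4 genes became 0 with no replicate block (2231 at an unadjusted p under 0.05), 96 with no filter (55 higher in D2.OR, 41 lower), 927 by DESeq2 (553 and 374), 12 by limma on log2(TPM + 1) (8 and 4) and 3 with at least 10 counts in every library (0 and 3). Leaving out 1 library or batch gave 0 to 2999 (0 to 1544 higher, 0 to 1455 lower), with 2509 (1110 and 1399) as the highest for a single library, the D2A1 2D one of batch 1, and 507 without the D2A1 3D one. A prior count of 5 left 98 genes with at least a 2-fold rise in all batches.

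Of the named genes, 2 that were not called changed sign: Cdkn1a to 0.0016 and 0.014 without the D2A1 2D libraries of batches 2 and 3 (range over single libraries -0.42 to 0.014), and Mdm2 to 0.032 and 0.025 without the D2A1 2D library of batch 1 or all of batch 1 (-0.082 to 0.032). Under the 8 other settings, which include the 6 D2A1 libraries alone, none of the 121 changed sign. All 8 refit the same D2A1 libraries, so the kept signs are no independent support. In 206 of those 939 values a call was lost and in 45 one was gained, and the D2A1 libraries alone kept 5 of 96 calls and the fit with no replicate block 7 of 97.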
